A study of Rattus norvegicus with 12 samples.

Results

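The genes of glycolysis and of the response to low oxygen were followed through the first weeks of rat vein grafts. The set held 36 genes chosen by name: the oxygen-sensing factors, the carriers of glucose and lactate, the enzymes from hexokinase to lactate dehydrogenase with their regulators, and several well-known targets of hypoxia. A probe was matched to 33 of them by RefSeq accession, out of 12355 genes tested on the arrays, and all 33 were well above background on all 12 arrays. No probe was matched to Egln1, Hk1 or Ldhb, which were not analysed here.

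The study followed an external jugular vein to carotid artery bypass in male rats. RNA from the veins was read on 12 single-colour Agilent arrays, 3 at each of day 7, day 14 and day 28 after the operation and 3 at day 0 from control rats that had no operation. Strain, age and the number of animals behind an array are not given in the sources used here, and no sham operation or drug is named. Day 0 therefore differs from the grafts in surgery as well as in time, and the effects of surgery, arterial flow and time cannot be told apart. The labels give every array the same replicate number, so replicates 1 to 3 are names only. The submitters state 3 independent experiments for each time after surgery, yet no label ties an array to an animal of its own. The p-values then reflect only how much these samples differ among themselves, and that spread could be technical.

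Levels are log2 of the background-corrected intensity minus the 75th percentile of the same array, so a gene at 0 was as bright as that percentile. A level can be followed for 1 gene across arrays but not compared between genes, because probes differ in brightness. A gene is said to have risen or fallen where limma, fitted on all 12 arrays, gave an adjusted p under 0.05 after Benjamini-Hochberg adjustment over 21063 probes. Errors of changes are standard errors of that fit.

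Between 71.9% and 82.6% of the 42136 gene spots on an array were well above background, and none was saturated. Day 0 replicate 3 and day 7 replicate 3 had 460 and 393 non-uniform gene spots, against 2 to 11 on the other arrays. Arrays that shared a scan time in the file headers are called a slide here, which gave 4 slides. No slide name was read, so a slide means only a shared scan time. Day 28 replicate 3 shared a slide with day 0 replicates 1 and 2, day 0 replicate 3 stood alone, and no slide held day 0 together with day 7 or day 14. Changes from day 0 fitted with the slide as a fixed block therefore all rest on day 28 replicate 3. The vessel label was borne out by smooth muscle genes: all 6 measured of 8 were well above background on every array, and all 6 fell on each graft day. The 6 measured endothelial genes of 8 were also well above background on every array.

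Glycolysis splits glucose into pyruvate in the cytosol and yields energy without oxygen, provided that lactate is formed and exported. When oxygen is scarce, prolyl hydroxylases stop marking the alpha subunits HIF-1alpha and HIF-2alpha for destruction, and these then bind short hypoxia response elements and drive glucose carriers, glycolytic enzymes and adaptive genes. Many steps are served by isozymes from separate genes with preferred tissues, such as the muscle enolase Eno3 and the brain-type aldolase Aldoc, and vessel wall cells and macrophages both rely on glycolysis. The control of the HIF subunits acts largely on the protein, which arrays do not read.

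The promoters of 6 members are shown because these genes include steady risers and fallers as well as classic hypoxia targets. Each sequence is the 160 bases before the start of the gene, 5′ to 3′ on the gene's strand, from RefSeq on the GRCr8 assembly. Capitals mark ACGTG or GCGTG, the core of the hypoxia response element, on either strand, so that CACGT and CACGC are the reverse strand, and CACGTG matches on both strands. Hk2 lies at chr4:116841276-116841435 on the minus strand, and Hk3 at chr17:9604871-9605030, Pfkp at chr17:68639653-68639812, Aldoc at chr10:63715384-63715543, Slc2a1 at chr5:138002362-138002521 and Ldha at chr1:106507932-106508091 on the plus strand.
Hk2: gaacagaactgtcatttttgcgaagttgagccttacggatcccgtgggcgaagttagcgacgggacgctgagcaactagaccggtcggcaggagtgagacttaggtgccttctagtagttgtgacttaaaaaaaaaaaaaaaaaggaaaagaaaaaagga
Hk3: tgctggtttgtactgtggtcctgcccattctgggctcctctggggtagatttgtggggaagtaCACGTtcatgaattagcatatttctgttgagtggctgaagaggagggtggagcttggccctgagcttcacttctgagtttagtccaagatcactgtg
Pfkp: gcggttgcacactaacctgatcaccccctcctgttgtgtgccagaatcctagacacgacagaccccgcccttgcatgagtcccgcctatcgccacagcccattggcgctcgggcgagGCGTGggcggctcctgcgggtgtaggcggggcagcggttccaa
Aldoc: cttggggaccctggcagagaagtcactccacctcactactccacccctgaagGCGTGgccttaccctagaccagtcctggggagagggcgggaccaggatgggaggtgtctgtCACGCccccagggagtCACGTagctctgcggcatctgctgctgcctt
Slc2a1: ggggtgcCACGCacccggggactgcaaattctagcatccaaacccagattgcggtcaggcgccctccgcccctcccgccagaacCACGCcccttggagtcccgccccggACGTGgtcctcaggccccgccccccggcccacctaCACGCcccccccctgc
Ldha: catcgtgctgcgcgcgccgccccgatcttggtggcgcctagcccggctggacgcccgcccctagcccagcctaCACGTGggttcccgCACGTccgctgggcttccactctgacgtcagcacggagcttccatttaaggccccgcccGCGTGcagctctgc

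The printed stretches hold 0 matches in Hk2, 1 in Hk3, 1 in Pfkp, 3 in Aldoc, 4 in Slc2a1 and 4 in Ldha. In windows of 300 bases, 250 before and 50 after the start, 24 of 36 promoters of 32 members held a match (66.7%). The share was 41.6% of 33469 promoters in the whole table and 54.7% of 10523 promoters of genes tested on the arrays. A match is only a run of letters, and the part of the matches in the changes below was not tested. In Ldha, 1 CACGTG is counted on both strands.

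Against day 0 the members moved in both directions. At day 7, 7 of 33 members rose and 7 fell, where 17.7% of all probes rose and 15.4% fell. At day 14, 4 rose and 7 fell, against 20.1% and 17.4% of all probes. At day 28, 9 rose and 4 fell, against 17.4% and 16.5% of all probes. In either direction, 14 members were called at day 7, 11 at day 14 and 13 at day 28, and the matching shares of all probes were 33.1%, 37.5% and 33.9%. The members were called about as often as probes at large. The median change of the members was -0.02 at day 7, 0.07 at day 14 and 0.33 at day 28, where the median over all probes was -0.03, 0.02 and 0.01.

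The 3 comparisons share the day 0 arrays, so a gene called at several days is not repeated evidence. Hk2, Hk3 and Pkm rose on all 3 graft days, and Epas1, Slc2a4, Pfkp and Aldoc fell on all 3; 11.4% of all probes rose and 9.18% fell on all 3 days. Another 8 members rose on 1 or 2 days, 4 fell on 1 or 2 days, 14 passed on none, and 0 rose on one day and fell on another. The arrays of a graft day did not overlap those of day 0 for 16 members at day 7, 18 at day 14 and 15 at day 28. The same held for 39.9%, 51.0% and 48.4% of all probes.

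**Figure D1:**
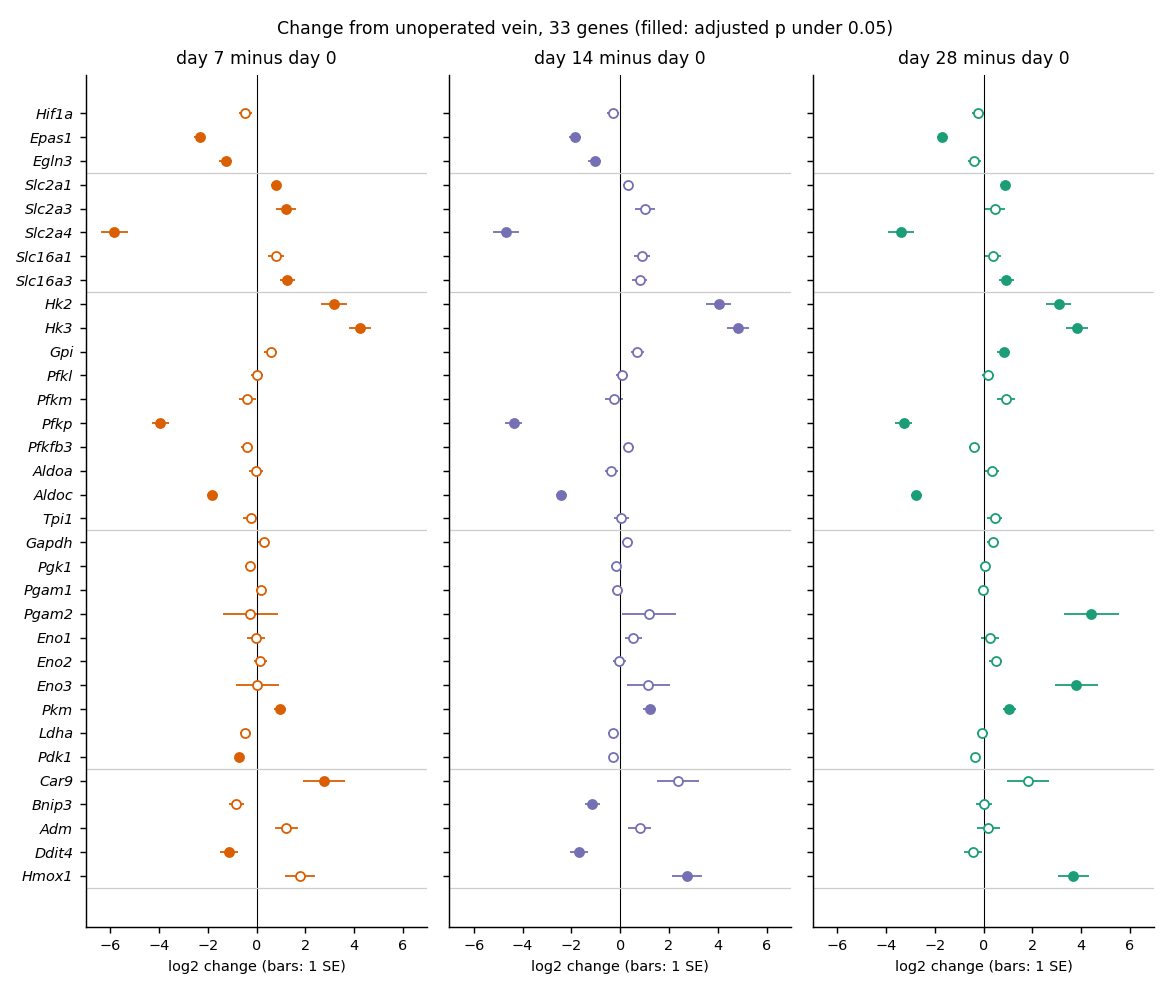
Changes of the 33 measured members against day 0, on the log2 scale, at day 7, day 14 and day 28, each as the difference of group means with its standard error from the fit on all 12 arrays (3 arrays a day). Changes run from -5.83 for Slc2a4 at day 7 to 4.82 for Hk3 at day 14, and 14 members passed the threshold on no day.

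The 2 HIF alpha subunits parted. Epas1 encodes HIF-2alpha, the form prominent in endothelium. Its level was 1.62, 2.29 and 1.56 at day 0, -0.42, -0.40 and -0.69 at day 7, -0.13, 0.12 and -0.05 at day 14, and 0.18, -0.15 and 0.37 at day 28. Every graft array lay below every day 0 array. Epas1 fell by 2.33 ± 0.23 at day 7 (adjusted p = 6.85e-05), by 1.85 at day 14 (adjusted p = 0.000199) and by 1.70 at day 28 (adjusted p = 0.000567).

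Hif1a, which encodes HIF-1alpha, stood at 2.43, 2.63 and 3.20 at day 0, 2.10, 2.15 and 2.63 at day 7, 2.5, 2.25 and 2.69 at day 14, and 2.53, 2.30 and 2.75 at day 28. All days overlapped. Its changes of -0.46 ± 0.25, -0.28 and -0.23 did not pass (adjusted p = 0.181, 0.408 and 0.506). The difference between Hif1a and Epas1 on the same array was 1.64 higher over the 9 graft arrays than over the 3 day 0 arrays, and the arrays did not overlap. The two-sided exact permutation p was 0.00909, the smallest this design allows, and 0.0227 after adjustment over the 10 isozyme or family pairs compared. For every pair this test pooled the graft days and took no account of slides. Of the graft arrays only day 28 replicate 3 shared a slide with day 0, so graft and slide are largely confounded. With any day 0 array left out, none of the 4 pairs called in this way can pass, since fewer arrangements remain.

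Egln3 encodes a prolyl hydroxylase that marks the HIF subunits and is itself a hypoxia target. It stood at 0.16, 0.43 and -0.06 at day 0, -1.08, -1.48 and -0.72 at day 7, -0.98, -0.59 and -1.06 at day 14, and -0.27, -0.52 and 0.19 at day 28. The day 7 and day 14 arrays lay wholly below day 0, while day 28 overlapped it. Egln3 fell by 1.27 ± 0.26 at day 7 (adjusted p = 0.0045) and by 1.05 at day 14 (adjusted p = 0.00999); the day 28 change was -0.38 (adjusted p = 0.289). With the slide as a fixed block the falls of both genes at day 7 and day 14 no longer passed. Epas1 was then at -1.94 and -1.56 (adjusted p = 0.231 and 0.0886). Egln3 was at -0.64 and -0.53 (adjusted p = 0.765 and 0.568). The day 7 call of Egln3 also ended with normexp background correction.

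Endothelial markers moved beside Epas1. Of the 6 measured, 4 fell at day 7, 4 at day 14 and 2 at day 28, and 1, Cdh5, rose at day 28. Their mean level lay between 1.62 and 2.41 at day 0, between -0.07 and 0.42 at day 7, between 0.65 and 0.84 at day 14 and between 1.04 and 1.96 at day 28. In pieces of whole vessel, fewer cells of a type and less RNA per cell cannot be told apart, and the part of the endothelium in the fall of Epas1 was not tested.

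Of the other oxygen-sensing genes, 9 of 10 were tested. None rose and 1 fell at day 7, none rose and 3 fell at day 14, and 1 rose and 2 fell at day 28. Among all probes 17.7%, 20.1% and 17.4% rose and 15.4%, 17.4% and 16.5% fell on those days. Hif3a, a HIF alpha relative with inhibitory forms, changed by -0.76, -1.11 and -1.14 and passed on all 3 days. Cited2, which competes with the HIF subunits for their coactivator, fell at day 14 by 1.39 ± 0.29 and at day 28 by 0.90. Arnt2, a partner subunit, fell at day 14 by 2.26 ± 0.61, and Vhl, which recognises hydroxylated HIF alpha, rose at day 28 by 0.49 ± 0.16. The changes of Arnt, the main partner subunit, were 0.52, 0.41 and 0.22, and none passed.

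Among the glucose carriers the insulin-responsive one fell furthest. Slc2a4 encodes GLUT4, the carrier of fat and muscle cells. It stood at 2.44, 3.13 and 3.49 at day 0, -2.96, -2.94 and -2.52 at day 7, -1.65, -0.97 and -2.42 at day 14, and -0.18, -1.55 and 0.64 at day 28. All 9 graft arrays lay below day 0. Slc2a4 fell by 5.83 ± 0.54 at day 7, which is 56.7-fold (adjusted p = 4.7e-05), by 4.69 at day 14 (adjusted p = 0.000121) and by 3.38 at day 28 (adjusted p = 0.00131).

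Fat cell markers moved with it. Of the 5 measured of 6, 4 fell at day 7, 5 at day 14 and 4 at day 28. Their mean level was 1.49 to 2.20 at day 0, -3.37 to -2.90 at day 7, -3.32 to -2.93 at day 14 and -2.27 to -1.69 at day 28, and Adipoq, a defining fat cell hormone, was well above background on all but 1 array, at day 7. All tested smooth muscle and cardiac muscle markers also fell on each graft day, while no skeletal muscle marker fell. The part of fat around the vein, or of muscle, in the fall of Slc2a4 was not tested. Fitting the slide as a fixed block gave Slc2a4 changes of -4.13, -2.97 and -2.14 (adjusted p = 0.235, 0.117 and 0.12).

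Slc2a1 encodes GLUT1, the widespread basal carrier and a hypoxia target. It stood at 2.42, 2.11 and 1.96 at day 0, 2.88, 2.91 and 3.07 at day 7, 2.51, 2.22 and 2.72 at day 14, and 3.03, 2.80 and 3.33 at day 28. The day 7 and day 28 arrays lay above all of day 0, and day 14 overlapped it. Slc2a1 rose by 0.79 ± 0.21 at day 7 (adjusted p = 0.0146) and by 0.89 at day 28 (adjusted p = 0.00877), and the day 14 change was 0.32 (adjusted p = 0.249). With the slide block its day 7 and day 28 changes were 1.07 and 1.07 (adjusted p = 0.455 and 0.0775), and without day 28 replicates 1 and 3 the day 28 change was 0.63 (adjusted p = 0.219). Normexp background correction ended both calls of Slc2a1. Its day 7 call also ended with only the arrays compared and without both arrays with many non-uniform spots. The difference between Slc2a1 and Slc2a4 was 5.30 higher on graft arrays (exact permutation p = 0.00909, adjusted 0.0227).

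Slc2a3 encodes GLUT3, a high-affinity carrier of neurons and white blood cells. It stood at -3.18, -2.14 and -3.57 at day 0, -1.81, -2.35 and -1.10 at day 7, -1.92, -2.32 and -1.63 at day 14, and -2.59, -2.71 and -2.17 at day 28. Day 0 replicate 2 lay within the graft arrays. Slc2a3 rose at day 7 by 1.21 ± 0.41 (adjusted p = 0.0422). That call was narrow: leaving out any array but day 0 replicate 2 or day 7 replicate 2 ended it, with changes of 0.88 without day 7 replicate 3 (adjusted p = 0.127) and 0.91 without day 0 replicate 3 (adjusted p = 0.117). The slide block gave 1.33 (adjusted p = 0.677). The call also ended with the slide as a random block and with only the arrays compared.

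Lactate leaves cells through the monocarboxylate carriers. Slc16a3 encodes MCT4, the exporter of strongly glycolytic cells. It stood at 1.26, 1.29 and 0.43 at day 0, 2.24, 1.65 and 2.87 at day 7, 1.73, 1.71 and 1.95 at day 14, and 1.85, 1.77 and 2.15 at day 28. Every graft array lay above day 0. Slc16a3 rose by 1.26 ± 0.32 at day 7 (adjusted p = 0.013) and by 0.93 at day 28 (adjusted p = 0.0473), while the day 14 change was 0.80 (adjusted p = 0.0734). Without day 0 replicate 3 the day 28 change was 0.64 (adjusted p = 0.133), and leaving out any day 14 or day 28 array or day 7 replicate 1 also ended that call. The slide block gave 1.41 at day 7 and 0.87 at day 28 (adjusted p = 0.516 and 0.27). Normexp background correction ended both calls, and so did a fit of only the arrays compared. The day 28 call also ended with no filter on the probes. Slc16a1, the widespread carrier MCT1, was between 0.38 and 0.90 higher on the graft days and passed on none.

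**Figure D2:**
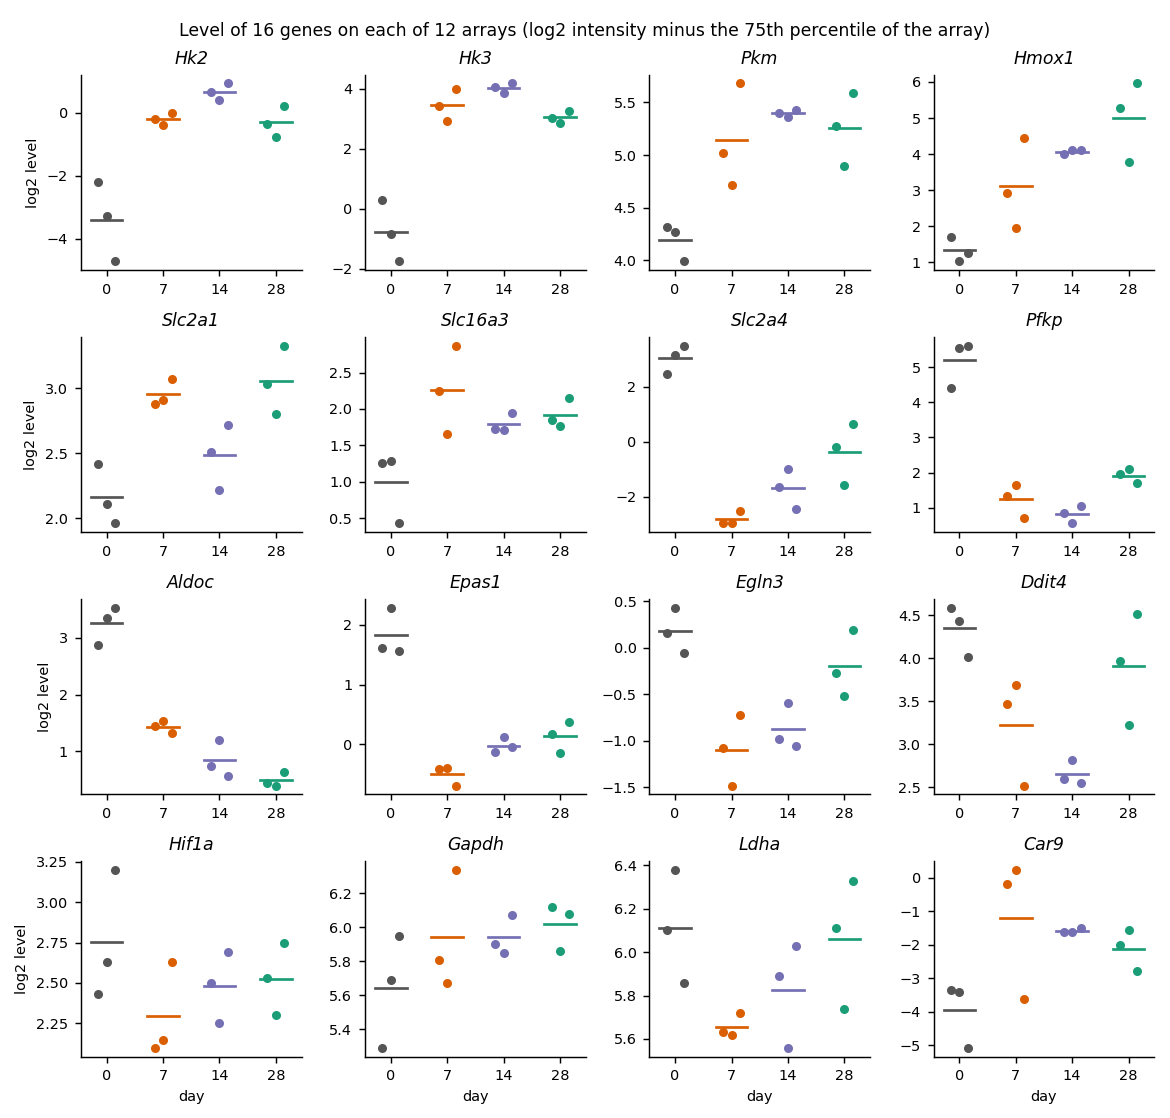
Levels of 16 of the members described array by array, as log2 intensity minus the array's 75th percentile, with the 3 arrays of day 0, day 7, day 14 and day 28 as points and their mean as a line; the axes differ between genes. Slc2a4 and Pfkp lie far below their day 0 arrays on all 9 graft arrays, Hk2 and Hk3 lie above theirs, and Hif1a overlaps on all days.

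The first enzyme of the pathway, hexokinase, which traps glucose in the cell, rose on every graft day in both measured forms. Hk2 encodes the insulin- and hypoxia-responsive form bound to mitochondria. It stood at -2.19, -3.26 and -4.71 at day 0, -0.21, -0.41 and -0.03 at day 7, 0.66, 0.38 and 0.92 at day 14, and -0.35, -0.77 and 0.20 at day 28. Every graft array lay above day 0, and the day 0 arrays were widely spread. Hk2 rose by 3.17 ± 0.52 at day 7 (adjusted p = 0.00129), by 4.04 at day 14 (adjusted p = 0.000246) and by 3.08 at day 28 (adjusted p = 0.00176). Without day 0 replicate 3 the day 7 rise was 2.51 (adjusted p = 0.00103), and without day 0 replicate 1 it was 3.77. With normexp background correction it was 1.89 (adjusted p = 0.0016). Without day 28 replicates 1 and 3 the day 28 change was 2.61 (adjusted p = 0.074).

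Hk3 encodes the hexokinase of myeloid cells. It stood at 0.29, -0.86 and -1.76 at day 0, 3.44, 2.92 and 4.01 at day 7, 4.07, 3.86 and 4.18 at day 14, and 3.04, 2.85 and 3.26 at day 28. The lowest graft array stood well above the highest day 0 array. Hk3 rose by 4.23 ± 0.45 at day 7 (adjusted p = 0.000101), by 4.82 at day 14, which is 28.2-fold (adjusted p = 3.78e-05), and by 3.83 at day 28 (adjusted p = 0.000258).

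Macrophage markers rose beside both hexokinases. Of 9 measured, 7 rose at day 7, 8 at day 14 and 6 at day 28, with a mean level of -1.28 to 0.53 at day 0, 2.45 to 3.80 at day 7, 3.20 to 3.37 at day 14 and 2.51 to 2.68 at day 28. Cd163 was not well above background on any day 0 or day 14 array, and the rest of the list was measured on every graft array. The 3 measured neutrophil genes of 6 had a mean level between -4.04 and -1.76 at day 0, between -0.92 and 2.56 at day 7, between 0.30 and 0.53 at day 14 and between -2.47 and -2.0 at day 28. On the graft days 3, 2 and 0 of them rose. The part of these cells in the rises of Hk2 and Hk3 was not tested. With the slide as a fixed block the day 7 rises did not pass (Hk2 3.26, adjusted p = 0.17; Hk3 4.01, adjusted p = 0.155), whereas those at day 14 and day 28 did. The block values at day 28 were 2.92 for Hk2 and 3.55 for Hk3. They are the differences on the slide that day 28 replicate 3 shared with day 0 replicates 1 and 2, so they rest on 1 graft array.

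**Figure D3:**
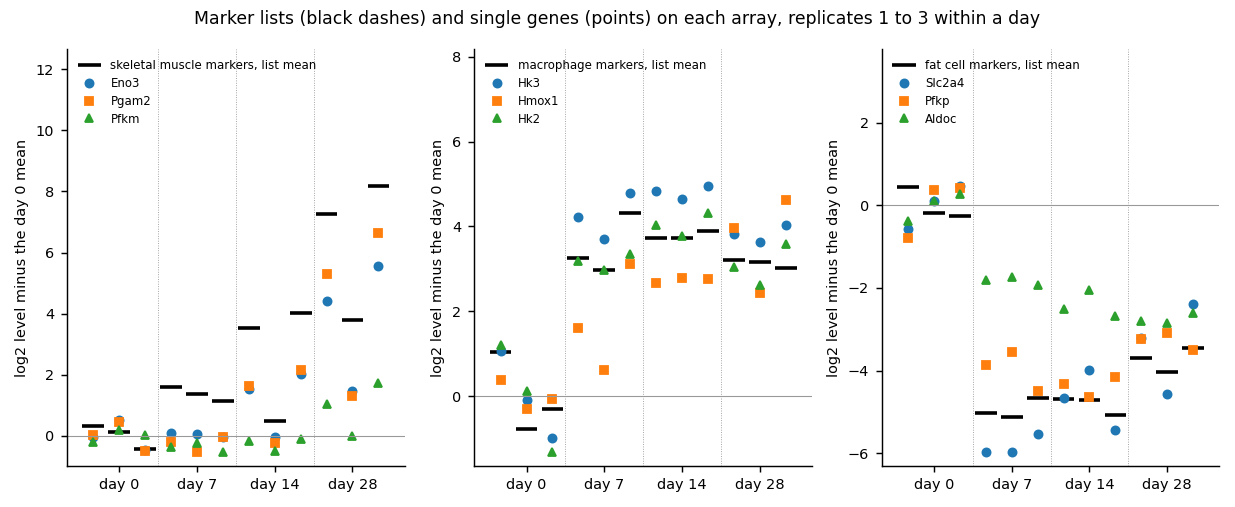
Mean level of 3 marker lists (black dashes) and levels of single members (points) on each of the 12 arrays, on the log2 scale, each minus its own mean over the 3 day 0 arrays; positions within a day are replicates 1 to 3. Skeletal muscle markers, Eno3 and Pgam2 are highest on day 28 replicates 1 and 3, macrophage markers and Hk3 are high on all 9 graft arrays, and fat cell markers and Slc2a4 are low on all 9.

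Phosphofructokinase, the main control step, has 3 isozymes. Pfkp, the platelet form, stood at 4.40, 5.56 and 5.62 at day 0, 1.34, 1.65 and 0.71 at day 7, 0.86, 0.55 and 1.05 at day 14, and 1.95, 2.10 and 1.69 at day 28. All graft arrays lay far below day 0. Pfkp fell by 3.96 ± 0.35 at day 7 (adjusted p = 3.55e-05), by 4.37 at day 14, which is 20.7-fold (adjusted p = 1.63e-05), and by 3.28 at day 28 (adjusted p = 0.000155). With the slide as a fixed block the day 7 value was -4.13 (adjusted p = 0.144), while the falls at day 14 and day 28 passed.

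The muscle form Pfkm changed by -0.38, -0.26 and 0.91, and the liver form Pfkl by 0.01, 0.07 and 0.17; none passed. The difference between Pfkp and Pfkm was 3.96 lower on graft arrays than at day 0 (value -3.96, exact permutation p = 0.00909, adjusted 0.0227). That between Pfkl and Pfkm shifted by -0.01 with all graft arrays pooled (exact permutation p = 0.973, adjusted 0.973). The pooled value joins unlike days, with means of -1.40 at day 0, -1.01 at day 7, -1.07 at day 14 and -2.14 at day 28. Pfkm stood at 3.15, 2.11 and 3.87 on the day 28 arrays, highest on replicates 1 and 3, as were the skeletal muscle markers. The part of skeletal muscle tissue in the values of Pfkm was not tested. Pfkfb3, which makes the activator of phosphofructokinase, changed by -0.40, 0.34 and -0.38 and passed on no day.

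Aldolase splits the 6-carbon sugar phosphate, and its brain-type isozyme fell on every graft day. Aldoc stood at 2.88, 3.35 and 3.53 at day 0, 1.45, 1.53 and 1.32 at day 7, 0.75, 1.21 and 0.57 at day 14, and 0.45, 0.40 and 0.64 at day 28. No graft array reached the day 0 arrays. Aldoc fell by 1.82 ± 0.22 at day 7 (adjusted p = 0.000234), by 2.41 at day 14 (adjusted p = 3.65e-05) and by 2.76 at day 28 (adjusted p = 2.96e-05). With the slide as a fixed block the day 7 value was -1.34 (adjusted p = 0.405), and the other days passed. Aldoa, the form common to most tissues, changed by -0.04, -0.36 and 0.33 with none passing. The difference between Aldoa and Aldoc was 2.30 higher on graft arrays (exact permutation p = 0.00909, adjusted 0.0227).

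Gpi, which turns glucose 6-phosphate into fructose 6-phosphate, rose only at day 28 by the test, by 0.83 ± 0.27 (adjusted p = 0.0359); the changes at day 7 and day 14 were 0.58 and 0.70. The call ended without any 1 of 9 arrays, with the smallest change, 0.54, without day 0 replicate 3 (adjusted p = 0.0818), and with the slide block (0.83, adjusted p = 0.126). It also ended with normexp background correction and with only the arrays compared. Smooth muscle markers had a mean level of 6.03 to 6.98 at day 0, 3.42 to 3.69 at day 7, 2.51 to 3.19 at day 14 and 3.68 to 3.74 at day 28. The part of smooth muscle, fat cells and macrophages in the values of Pfkp, Aldoc and Gpi was not tested.

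**Figure D4:**
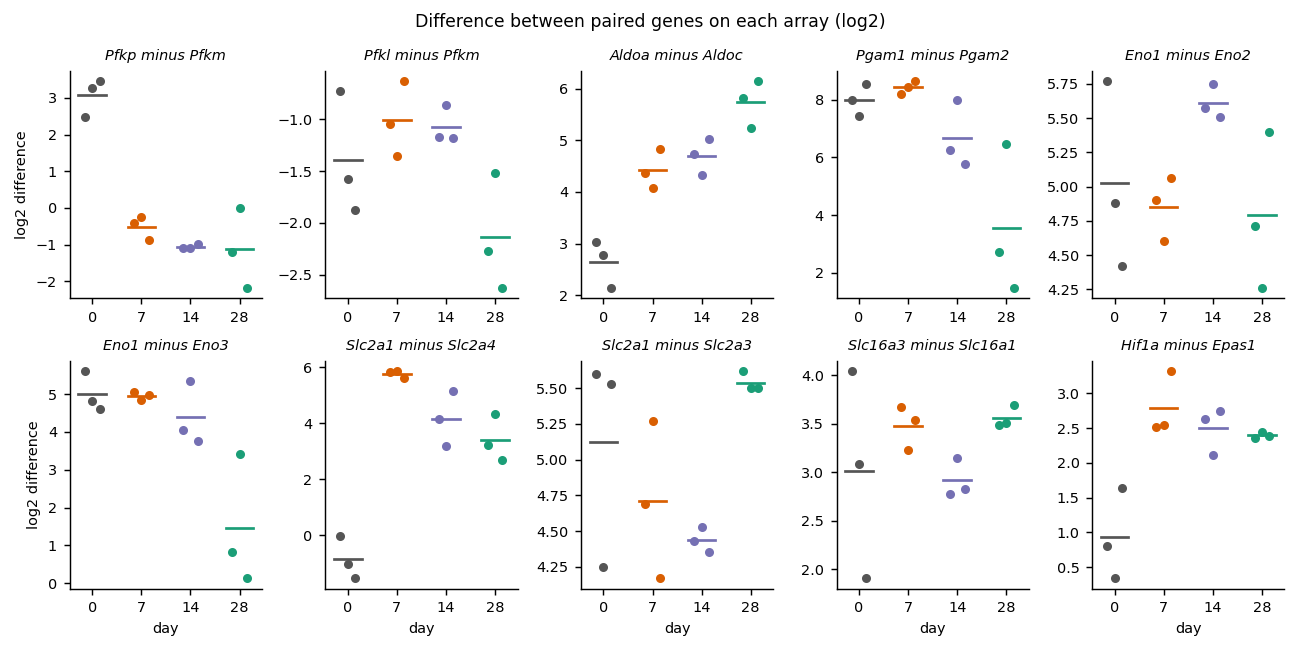
Differences in log2 level between isozymes or family members on the same array at day 0, day 7, day 14 and day 28, 3 arrays a day as points and their mean as a line. For the pairs of Pfkp with Pfkm, Aldoa with Aldoc, Slc2a1 with Slc2a4 and Hif1a with Epas1 the 9 graft arrays do not overlap the 3 day 0 arrays; only the shift between days is to be read, since probes differ in brightness.

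In the lower steps of the pathway most enzymes gave no call. Gapdh, often used as a reference gene, stood at 5.29, 5.69 and 5.95 at day 0, 5.81, 5.67 and 6.34 at day 7, 5.90, 5.85 and 6.07 at day 14, and 6.12, 5.86 and 6.08 at day 28. The days overlapped. Its changes of 0.29 ± 0.23, 0.29 and 0.38 did not pass (adjusted p = 0.352, 0.337 and 0.222). The call depended on the scaling. After quantile normalization they were 0.62, 0.79 and 0.95 (adjusted p = 0.0205, 0.00549 and 0.00265), and in limma run on the authors' deposited values 0.63, 0.82 and 0.91 (adjusted p = 0.0147, 0.00307 and 0.00241), so Gapdh was called higher there.

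Tpi1, Pgk1, Pgam1, Eno1 and Eno2, which carry the middle and lower steps, passed on no day, with changes from -0.26 for Pgk1 at day 7 to 0.54 for Eno1 at day 14. A p that misses the threshold does not show that these levels were equal. Both probes of Pgk1 and both probes of Eno1 also passed on no day.

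The muscle isozymes of the lower steps stood apart at day 28. Pgam2, muscle phosphoglycerate mutase, stood at -2.59, -2.17 and -3.11 at day 0, -2.82, -3.16 and -2.67 at day 7, -1.0, -2.87 and -0.46 at day 14, and 2.66, -1.32 and 4.01 at day 28. Eno3, muscle enolase, stood at 0.03, 0.58 and -0.42 at day 0, 0.15, 0.13 and 0.01 at day 7, 1.58, 0.03 and 2.08 at day 14, and 4.47, 1.52 and 5.61 at day 28. Both genes were highest on day 28 replicates 1 and 3, and replicate 2 was the lowest array at both day 14 and day 28. At day 28 Pgam2 rose by 4.41 ± 1.12 (adjusted p = 0.013) and Eno3 by 3.80 ± 0.88 (adjusted p = 0.00839).

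Skeletal muscle markers followed the same arrays. Their mean level was -2.03 to -1.27 at day 0, -0.46 to 0.02 at day 7, 1.95, -1.11 and 2.45 on the day 14 arrays, and 5.69, 2.22 and 6.60 on the day 28 arrays. Of 7 measured of 9, 0 rose at day 7, 3 at day 14 and all 7 at day 28. All 3 tested cardiac markers of 4 fell on each graft day. The part of skeletal muscle tissue in these values was not tested. With day 28 replicates 1 and 3 left out, Pgam2 was 1.30 higher (adjusted p = 0.334) and Eno3 1.46 higher (adjusted p = 0.225), and 1 member rather than 9 was called higher at day 28. The single day 28 array left there is assumed to vary like the other groups. Without day 28 replicate 1 alone the change of Pgam2 was 3.97 (adjusted p = 0.0528). The call of Pgam2 also ended with only the arrays compared. With the slide block Pgam2 was at 6.39 (adjusted p = 0.053) and Eno3 at 5.31 (adjusted p = 0.0457). Those block values compare day 28 replicate 3 with day 0 replicates 1 and 2.

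Pyruvate kinase, encoded by Pkm, makes pyruvate. It stood at 4.32, 4.27 and 3.99 at day 0, 5.02, 4.72 and 5.68 at day 7, 5.40, 5.36 and 5.43 at day 14, and 5.28, 4.90 and 5.59 at day 28. Every graft array lay above day 0. Pkm rose by 0.95 ± 0.26 at day 7 (adjusted p = 0.0179), by 1.21 at day 14 (adjusted p = 0.00466) and by 1.06 at day 28 (adjusted p = 0.0106). The array does not separate the M1 and M2 forms here. Fitting the slide as a fixed block gave 1.33, 1.60 and 1.29 (adjusted p = 0.484, 0.121 and 0.0966). Normexp background correction ended the day 7 and day 28 calls of Pkm. The day 7 call of Pkm also ended with only the arrays compared and without both arrays with many non-uniform spots. Without day 28 replicates 1 and 3 its day 28 change was 0.71 (adjusted p = 0.255).

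Ldha encodes the lactate dehydrogenase subunit that favours lactate. It stood at 6.10, 6.38 and 5.86 at day 0, 5.63, 5.62 and 5.72 at day 7, 5.89, 5.56 and 6.03 at day 14, and 6.11, 5.74 and 6.33 at day 28. Day 7 lay just below day 0 and the other days overlapped it. Its changes of -0.46 ± 0.21, -0.29 and -0.05 did not pass (adjusted p = 0.123, 0.307 and 0.862). Of the 3 Ldha probes, 1 dimmer probe gave -0.46, -0.27 and -0.05. The other dimmer probe gave 0.33, 0.76 and 0.62, so the probes differ in sign. Neither gave a call. The part of the promoter matches in the values of Ldha was not tested.

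Pdk1, the kinase that closes pyruvate off from the mitochondria under hypoxia, fell at day 7 by 0.72 ± 0.15 (adjusted p = 0.00441). Its levels were 0.74, 0.78 and 0.76 at day 0 and 0.03, 0.09 and 0.01 at day 7. The changes at day 14 and day 28 were -0.29 and -0.35 and did not pass (adjusted p = 0.142 and 0.0936). The slide block gave -0.49 at day 7 (adjusted p = 0.692). The day 7 call also ended with only the arrays compared.

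Of 5 hypoxia and stress targets, Hmox1 was the one that rose at day 14 and day 28, and Car9 the one that rose at day 7. Hmox1 encodes heme oxygenase 1, which breaks down heme and answers oxidative stress as well as hypoxia. Its level was 1.70, 1.02 and 1.26 at day 0, 2.93, 1.95 and 4.44 at day 7, 4.0, 4.11 and 4.10 at day 14, and 5.29, 3.77 and 5.96 at day 28. Every graft array lay above day 0. Its change was 1.78 ± 0.63 at day 7 (adjusted p = 0.0527), and it rose by 2.74 at day 14 (adjusted p = 0.00673) and by 3.68 at day 28, which is 12.8-fold (adjusted p = 0.00192). Without day 7 replicate 2 the day 7 change was 2.36, and it passed. With the slide as a fixed block the day 14 value was 4.17 (adjusted p = 0.11), and without day 28 replicates 1 and 3 the day 28 value was 2.44 (adjusted p = 0.0864).

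Erythroid markers, whose cells carry heme, had a mean level between -1.68 and -0.21 at day 0, between 1.59 and 3.02 at day 7, between -0.67 and 1.07 at day 14 and between 0.41 and 0.66 at day 28. Of 4 measured of 5, 3 rose at day 7, 2 at day 14 and 3 at day 28. The part of red cells and of macrophages in the rise of Hmox1 was not tested. Of 12 partner genes of Hmox1 in heme, iron and redox handling, 4 rose at day 7, 3 at day 14 and 4 at day 28, and none fell. Among all probes 17.7%, 20.1% and 17.4% rose and 15.4%, 17.4% and 16.5% fell on those days. Slc40a1, the iron exporter ferroportin, changed by 1.80, 2.24 and 2.17, Srxn1, a peroxiredoxin repair enzyme, by 1.47, 1.44 and 1.62, and Blvra, which reduces biliverdin, by 1.33, 1.74 and 0.70; the first 2 passed on all 3 days and Blvra at day 7 and day 14. Gclm, a glutathione synthesis subunit, rose at day 7 by 0.95 and at day 28 by 0.91, and Nfe2l2, which encodes the stress regulator NRF2, rose at day 28 by 0.64.

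Car9, the carbonic anhydrase that is a textbook hypoxia target, stood at -3.35, -3.41 and -5.07 at day 0, -0.20, 0.24 and -3.61 at day 7, -1.63, -1.62 and -1.49 at day 14, and -2.01, -1.57 and -2.77 at day 28. Day 7 replicate 3 overlapped day 0, and the other graft arrays lay above it. Car9 rose by 2.75 ± 0.87 at day 7 (adjusted p = 0.0344). The changes at day 14 and day 28 were 2.37 and 1.83 (adjusted p = 0.0553 and 0.131). Leaving out day 7 replicate 1 or 2 gave 2.26 or 2.04 (adjusted p = 0.122 and 0.121), leaving out day 0 replicate 2 or 3 gave 3.02 or 2.19 (adjusted p = 0.0515 and 0.0987), and leaving out day 7 replicate 3, the array with many non-uniform spots, gave 3.96 (adjusted p = 0.000555). Without day 14 replicate 1 or day 28 replicate 1 the adjusted p was 0.0507. The slide block gave 1.29 at day 7 (adjusted p = 0.894). The day 7 call of Car9 also ended with normexp background correction, with the slide as a random block and with only the arrays compared.

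Bnip3 encodes a mitophagy receptor that HIF induces. It stood at 1.32, 1.58 and 1.51 at day 0, 0.94, 1.21 and -0.23 at day 7, 0.36, 0.12 and 0.52 at day 14, and 1.5, 1.39 and 1.60 at day 28. Day 14 lay wholly below day 0, and so did day 7. Bnip3 fell at day 14 by 1.14 ± 0.32 (adjusted p = 0.0177), and its changes at day 7 and day 28 were -0.83 and 0.02 (adjusted p = 0.0691 and 0.965). Without day 14 replicate 2 the day 14 change was -1.03 (adjusted p = 0.0599), and with the slide block it was -0.98 (adjusted p = 0.47).

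Ddit4, the mTOR inhibitor REDD1, stood at 4.59, 4.44 and 4.02 at day 0, 3.47, 3.69 and 2.52 at day 7, 2.60, 2.82 and 2.55 at day 14, and 3.97, 3.23 and 4.52 at day 28. Day 7 and day 14 lay below day 0, and day 28 overlapped it. Ddit4 fell by 1.12 ± 0.37 at day 7 (adjusted p = 0.0385) and by 1.69 at day 14 (adjusted p = 0.00503), and the day 28 change was -0.44 (adjusted p = 0.377). Without day 7 replicate 3 the day 7 value was -0.77 (adjusted p = 0.112), and that call also ended without day 0 replicate 1 or 2, day 7 replicate 1, day 28 replicate 1 or any day 14 array, at adjusted p from 0.0529 to 0.0899. With the slide as a fixed block Ddit4 was at -0.29 at day 7 and -0.91 at day 14 (adjusted p = 0.939 and 0.474). The day 7 call of Ddit4 also ended with quantile normalization and with the authors' deposited values. It ended as well with the slide as a random block, with only the arrays compared and without both arrays with many non-uniform spots. Adm, the vasodilator adrenomedullin, changed by 1.21, 0.80 and 0.19 and passed on no day; without day 7 replicate 3 its day 7 change was 1.84 and passed.

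The graft days did not separate the members from one another by the test. Between day 14 and day 7, 0 of 33 members were called, where limma called 3.26% of all probes. Between day 28 and day 14 the counts were 0 members and 4.48%, and between day 28 and day 7 they were 0 members and 1.78%. At an unadjusted p under 0.05, 4, 11 and 10 members passed, against 15.6%, 22.9% and 17.4% of all probes. The largest shifts from day 7 to day 28 were 4.67 in Pgam2 (adjusted p = 0.0682), 3.77 in Eno3 (adjusted p = 0.0632) and 2.44 in Slc2a4 (adjusted p = 0.052). Within day 28, Pgam2, Eno3 and Slc2a4 were highest on replicates 1 and 3, as were the skeletal muscle markers. Without day 28 replicate 2, 3 members were called between day 28 and day 14 and 4 between day 28 and day 7.

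Other pathway genes showed where the changes lay around the members. Of 17 other glycolysis genes 15 were tested: 3 rose and 3 fell at day 7, 2 rose and 1 fell at day 14, and 3 rose and 3 fell at day 28. Among all probes 17.7%, 20.1% and 17.4% rose and 15.4%, 17.4% and 16.5% fell on those days. Gpd2, the mitochondrial glycerol phosphate dehydrogenase that carries reducing power into mitochondria, changed by 1.57, 2.01 and 1.15 and passed on all 3 days, as did Adpgk, the ADP-dependent glucokinase, at 1.14, 1.08 and 1.06. Bpgm, which makes the 2,3-bisphosphoglycerate of red cells, rose at day 7 by 1.24 and at day 28 by 0.92. Gpd1, the cytosolic glycerol phosphate dehydrogenase, fell at day 14 by 2.84. Single-day falls were 1.92 for Pgk2, the testis isozyme, at day 28, when 2 of 3 arrays measured it well above background, and 1.35 for Fbp1, a gluconeogenic enzyme, at day 7, while Galm, which interconverts glucose anomers, fell at day 7 and day 28.

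The list of pyruvate entry and transport held calls in both directions. Of 17 tested genes of 19 for pyruvate entry and sugar or lactate transport, 3 rose and 8 fell at day 7, 2 rose and 7 fell at day 14, and 2 rose and 5 fell at day 28. Of all probes 17.7%, 20.1% and 17.4% rose and 15.4%, 17.4% and 16.5% fell on those days. Pdk4, the pyruvate dehydrogenase kinase of fat-burning tissue, was not well above background on any day 14 array and was at least 22.4-fold lower there (adjusted p = 7.29e-05), taking on each array the higher of its own value and the lowest probe well above background; its own value was the higher on all 3. At day 7 it was well above background on 1 of 3 arrays, where the measured difference from day 0 was -4.33, and at day 28, when all 3 arrays measured it, it fell by 2.35. Slc16a7, the high-affinity lactate and pyruvate carrier MCT2, fell by 1.49, 1.46 and 0.90, while Slc2a5, the fructose carrier, rose by 1.99, 3.08 and 1.42. Pdk3, another pyruvate dehydrogenase kinase, rose by 1.18, 1.27 and 0.87, and Slc2a10, a further glucose carrier, rose at day 7 by 0.91.

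Other hypoxia targets went both ways. Of 27 tested of 32, 7 rose and 6 fell at day 7, 7 and 6 at day 14, and 6 and 4 at day 28. Among all probes 17.7%, 20.1% and 17.4% rose and 15.4%, 17.4% and 16.5% fell on those days. Plod2, a collagen lysyl hydroxylase, rose by 3.46 ± 0.38, 2.93 and 3.64. Ak4, a mitochondrial adenylate kinase, fell by 1.77, 1.38 and 1.74, and Stc1, a secreted glycoprotein, fell by 1.80, 1.31 and 1.26. Vegfa, the vessel growth factor most used as a hypoxia readout, changed by -0.19, 0.11 and 0.76 and passed on no day.

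The pentose phosphate branch makes NADPH and ribose from glucose 6-phosphate. Of 7 tested of 8, 2 rose at day 7, 2 at day 14 and 1 at day 28, and none fell, where 17.7%, 20.1% and 17.4% of all probes rose. Taldo1, transaldolase, rose at day 7 by 1.02 and at day 14 by 0.91.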

How the data were processed

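The authors deposited one scanner table of spot intensity an array. The submitters' processing notes name Agilent Feature Extraction 11.0.1.1, which had already corrected each intensity for background, and per the file headers the design was annotated on rn4. The deposited table of 24529 features, on a log2 scale as judged from its values, was an alternative: its column medians were 7.149 to 7.153, each column correlated with its own array at 0.9915 to 0.9987, and the step that set its common centre is not given in the sources used here.

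Control spots (1417 an array) and 7348 outlier spots were left out, spots of a probe were averaged, and log2 intensity minus the array's 75th percentile was used. A probe entered the test if it was well above background on 3 or more of 12 arrays (21063 of 24684). Gene names came from RefSeq accessions without versions matched to the GRCr8 gene table (names only; 14294 probes with 1 symbol, none with several, the rest unnamed), and the brightest tested probe stood for a gene. limma 3.58.1 in R 4.3.3 was fitted on all 12 arrays (8 residual and 2.32 prior degrees of freedom). The 10 isozyme differences were tested by exact two-sided permutation of 9 graft against 3 day 0 arrays; 14 pairs were planned and 4 lacked a probe. Python 3.11.15, pandas 2.3.3, SciPy 1.17.1 and Matplotlib 3.10.9 were used. Fits were tested on simulated data.

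Alternatives were normexp, quantile normalization, the authors' table, no filter, the slide as a fixed or random block (correlation 0.17), only the arrays compared, the mean of a gene's probes, each array left out, both arrays with many non-uniform spots left out and, chosen after seeing the data, day 28 replicates 1 and 3 left out. Normexp started from the median spot intensity. Array by array values are given for the 16 called members with the largest change and for Hif1a, Gapdh, Slc2a1 and Ldha; other pathway genes were named by size of change within each list. Some genes counted in these lists are not reported here by name. The members and lists were chosen with earlier results of these data known. The number of arrays limits the precision.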

Additional observations from a re-analysis of the deposited data

How the results depend on the processing

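No paired analysis was possible because the labels give every array the same replicate number. Of 38 member calls against day 0, 8 were lost under none of 22 settings and 30 under 1 or more; no member call changed sign. At day 7, 7 members higher became 3 with normexp, 2 with only the arrays compared and 0 with the slide as a fixed block, and 7 lower became 0 with that block; without single arrays the counts were 5 to 7 higher and 6 to 8 lower. At day 14, 4 higher became 7 with quantile normalization, 7 with the authors' table and 2 with the fixed block, and 7 lower became 2 with the block; without single arrays they were 4 to 8 (8 without day 7 replicate 3) and 6 to 7. At day 28, 9 higher became 5 with normexp, 4 with the fixed block and 1 without day 28 replicates 1 and 3, and were 6 to 10 without single arrays, while 4 lower stayed at 4 there. The fixed block kept 0 of 14 calls at day 7, 4 of 11 at day 14 and 7 of 13 at day 28, and kept the sign of all of them; the random block kept 11, 11 and 13. The block estimates day 7 and day 14 only through chains of slides, since no slide held either day together with day 0. Its day 28 values compare day 28 replicate 3 with day 0 replicates 1 and 2. Every fixed block value against day 0 therefore rests on that graft array, which had the highest skeletal muscle marker mean, 6.6. Between graft days, the 0 members became 3 for day 14 against day 7, 5 for day 28 against day 14 and 4 for day 28 against day 7 without both arrays with many non-uniform spots, 6 for day 28 against day 14 with only the arrays compared, and 1 for day 28 against day 7 with quantile normalization and with the authors' table; without single arrays they ranged from 0 to 1, 0 to 3 and 0 to 4. The 4 isozyme calls became 0 without both non-uniform arrays and ranged from 0 to 4 without single arrays, because fewer day 0 arrays leave fewer arrangements. Normexp moved the median of all probes by 0.44 at day 7, and changes under it are relative to that median. Signals near background limit the dimmest genes.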
